A study of Mus musculus with 8 samples.

Results

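The Rbm and Rbms genes are named for the RNA-binding motif in their proteins. In this array series 67 probes of genes carry such a name with a number, and they stand for 33 genes. Probes were chosen by the gene name printed in the array files, out of 41174 probes of genes. The choice of this family was made with earlier results of these data known. A probe was kept when at least 1 group had it well above background on both of its arrays. Of the 67 probes 56 passed, which left 30 of the 33 genes among the 19021 genes tested. Rbm11, Rbm31y and Rbm41 had no kept probe: each of their probes was well above background on at most 1 of 8 arrays.

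RNA was measured on 8 one-colour arrays from in vitro primordial germ cells of the mouse, derived from embryonic stem cells of the V6.5 line, of mixed C57BL/6 and 129SV background, after 12 days of differentiation. All 8 samples came from cells that carry a Dazl-GFP-V5 fusion, so the control is the antibody and not an untagged cell. Groups of 2 arrays each held total input RNA, RNA from a mock immunoprecipitation (IP) with normal mouse IgG, RNA recovered with a V5 antibody (V5 IP) and RNA recovered with a GFP antibody (GFP IP). Lysates were native, with no ultraviolet crosslinking. No label says that the 2 arrays of a group stand for separate cultures, and the p-values cover array-to-array spread alone, which may be technical.

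DAZL is a germ cell protein that binds mRNAs, mostly in their 3′ untranslated regions, and regulates their translation and stability. RNA-binding motif proteins carry a small domain, the RNA recognition motif, that can bind single-stranded RNA. The family is a collection by domain and not by task: its members act in splicing, in nuclear RNA decay, in the exon junction complex, in ribosome production and on the stability and translation of mRNAs. An mRNA that encodes one RNA-binding protein can thus itself be bound by another.

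Values are normalized log2 signals, that is log2 of the processed spot intensity minus the 75th percentile of its array, so that 0 is the signal at that percentile. A fold change thus compares a gene with the other RNA on its array and is not an amount recovered. The processed intensity at that percentile was 352 on mock 1, 767 on mock 2 and 641 to 1130 on the other arrays, and between 61.3% and 70.5% of probes were well above background. Slide 1 held replicate 1 of each group and slide 2 held replicate 2, and values are given in that order. Levels of different probes cannot be set against each other. Over all 19021 genes the median difference from mock IP was -0.44 in V5 IP as in GFP IP, so a gene at 0 lies above most genes. Dazl mRNA rose 6.19-fold with anti-V5 and 6.56-fold with anti-GFP over mock IP (limma, adjusted p = 0.00495 and 0.00388). All 8 germ cell markers measured were well above background in both input arrays. So were all 25 measured markers of other lineages, whose summed signal relative to the 75th percentile was 38.0 and 39.6 in input, 44.7 and 37.0 in mock IP, 39.9 and 29.3 on the V5 arrays and 38.5 and 30.8 on the GFP arrays. In GFP IP T and Hbb-bh1 among them were not well above background on either array. The sum adds linear signals of different probes, so the brightest weigh most in it. Of the 25, V5 IP had 1 above and 4 below mock IP by the test, and GFP IP had 1 above and 6 below. Over all genes V5 IP had 14.6% higher and 21.4% lower, and GFP IP 16.3% and 26.5%. Of the 8 germ cell markers 4 were higher and 1 was lower in each IP. Of 5 pluripotent cell markers 3 were higher in each IP, and 1 was lower in GFP IP. The part of all these markers in the Rbm results was not tested. In such bulk samples fewer cells of a type and less RNA per cell cannot be told apart.

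Comparing each IP with mock IP asks which mRNAs an antibody to tagged DAZL recovered in a larger share than normal IgG did. In V5 IP the mRNAs of Rbm9, Rbm27, Rbm7, Rbm3, Rbm12, Rbm22, Rbm26, Rbm18 and Rbm16 rose, and those of Rbm19, Rbm21, Rbms2 and Rbm10 fell. That is 9 of 30 genes higher (30.0%), where 14.6% of all genes tested were higher, and 4 of 30 lower (13.3%), where 21.4% of all genes were lower. In GFP IP Rbm9, Rbm27, Rbm7, Rbm3, Rbm22, Rbm12, Rbm18, Rbm26 and Rbm16 rose, and Rbm35b, Rbm19, Rbm21, Rbm10 and Rbms2 fell. The counts were 9 higher (30.0%) against 16.3% of all genes, and 5 lower (16.7%) against 26.5% of all genes. V5 IP had a median of 0.32 over the 30 genes, GFP IP one of 0.46, and 25 of 30 lay above the median of all genes in each. Both comparisons use the same mock arrays, so they are given side by side and not as support for each other.

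**Figure D1:**
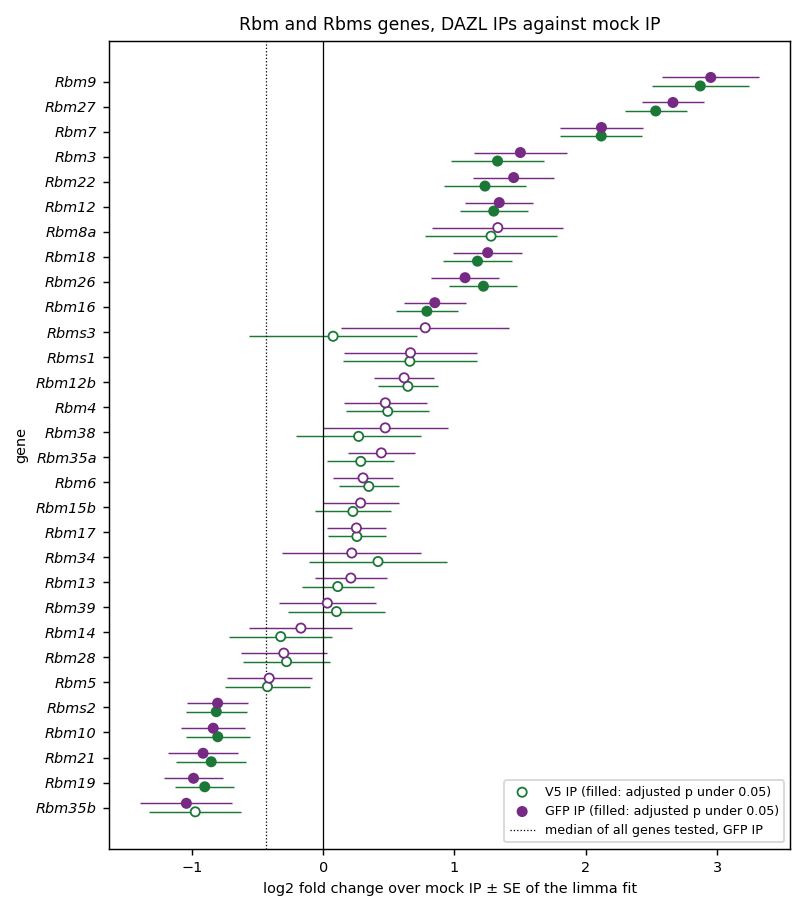
Log2 fold change over mock IP, with the standard error of the limma fit, for the 30 tested Rbm and Rbms genes in V5 IP and GFP IP (2 arrays a group; filled points passed the test). Rbm9, Rbm27 and Rbm7 stand at the top, from 2.12 to 2.95, and Rbms2, Rbm10, Rbm21, Rbm19 and Rbm35b at the bottom, between -0.80 and -1.04.

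On each slide alone every one of these calls kept its direction. Their number depended on single arrays, on the background correction and on the centring. Without V5 1 or mock 1 the higher calls in V5 IP numbered 3 and the lower calls 0. Without input 1 or input 2, which enter through the shared estimate of the spread, they numbered 5 and 0, and without V5 2, GFP 1 or GFP 2 8 and 1. In GFP IP leaving out GFP 1 gave 3 and 0, leaving out mock 1 gave 4 and 1, leaving out GFP 2, input 1 or input 2 gave 8 and 1, and leaving out mock 2 gave 10 and 3. Rbm9, Rbm27 and Rbm7 were the genes that kept their call in V5 IP under all 16 alternatives, and in GFP IP too. With normexp background correction 3 were higher and none lower in each IP. With each array centred on the median of the tested genes, V5 IP had 10 higher and 0 lower, while GFP IP had 10 higher and 1, Rbm19, lower. Shares of all genes are not given for normexp, median centring or a left-out array. The counts there describe how stable the calls were and do not set the family against other genes. A fit with slide as a block had 11 higher and 5 lower in each IP. For V5 IP that fit called 19.4% of all genes higher and 38.5% lower, for GFP IP 20.9% and 40.2%. Rbm8a and Rbm12b were gained in both, and Rbm35b in V5 IP.

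Among the 12 splicing genes, 10 were tested. This and the other role groups were formed with earlier results of these data known, so their counts are descriptions. Rbm9, now named Rbfox2, encodes a regulator of alternative exons in neurons, muscle and stem cells. Its signal was 1.17 and 1.14 on the input arrays, 1.76 and 1.43 in mock IP, 4.90 and 4.03 on the V5 arrays and 4.91 and 4.17 on the GFP arrays. Every V5 and GFP array lay far above every mock and input array, and on slides 1 and 2 the differences from mock IP were 3.14 and 2.60 on the V5 arrays and 3.15 and 2.75 on the GFP arrays. Rbm9 rose 7.32-fold over mock IP in V5 IP (log2 2.87 ± 0.37 standard error, adjusted p = 0.00332) and 7.74-fold with anti-GFP (2.95 ± 0.37, adjusted p = 0.00266). The highest adjusted p with an array left out was 0.0312 for V5 IP, 0.0259 for GFP IP, both without mock 1. Its other probe stood 2.92 and 3.24 above mock IP.

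Rbm22 encodes a component of the activated spliceosome. It gave 0.45 and 0.25 in input, -0.18 and -0.04 in mock IP, 1.45 and 0.79 on the V5 arrays and 1.62 and 1.06 on the GFP arrays. The IP arrays lay above both the mock and the input arrays with no overlap. Rbm22 rose 2.35-fold with anti-V5 (log2 1.23 ± 0.31, adjusted p = 0.0252) and 2.73-fold with anti-GFP (1.45 ± 0.31, adjusted p = 0.0128), and its other probe stood at 1.39 and 1.5. The V5 call ended without mock 1, V5 1, input 1 or input 2 (adjusted p at most 0.127), and the GFP call without mock 1 or GFP 1 (up to 0.0818).

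Rbm10 and Rbm35b were the splicing genes on the lower side. Rbm10, a splicing repressor, lay at 3.58 and 3.58 in input, 3.45 and 3.28 in mock IP, 2.37 and 2.75 on the V5 arrays and 2.39 and 2.66 on the GFP arrays. All 4 IP arrays were below all mock and input arrays. The fall was 1.74-fold with anti-V5 (log2 -0.80 ± 0.24, adjusted p = 0.0393) and 1.79-fold with anti-GFP (-0.84 ± 0.24, adjusted p = 0.0294). Relative to the median of all genes Rbm10 lay at -0.36 and -0.40, and with median centring neither call held (adjusted p = 0.0796 and 0.0661). Its calls also ended when any 1 of 7 arrays was left out in V5 IP (up to 0.197 without V5 1) and any 1 of 5 in GFP IP (up to 0.169 without GFP 1).

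Rbm35b, now Esrp2, and Rbm35a, now Esrp1, encode the epithelial splicing regulators. Rbm35b read -0.12 and 0.29 in input, 0.70 and 0.86 in mock IP, -0.54 and 0.15 on the V5 arrays and -0.63 and 0.10 on the GFP arrays. Mock IP was the highest group, and the IP arrays overlapped input. The difference from mock IP was -0.97 ± 0.35 in V5 IP, which did not pass (adjusted p = 0.0618; 0.00955 with slide as a block), and -1.04 ± 0.35 in GFP IP, which did (adjusted p = 0.0457). The GFP call ended with median centring (0.0806) and without GFP 1 (0.246), mock 1, mock 2, input 1 or input 2. Rbm35a stood 0.29 and 0.44 above mock IP and did not pass.

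For the other splicing genes the difference from mock IP did not pass. Rbm4, a regulator of splicing and translation, stood at 0.49 and 0.47, Rbm6 at 0.35 and 0.30, Rbm17, which acts at the 3′ splice site, at 0.26 and 0.25, Rbm39, a partner of the U2AF factor, at 0.10 and 0.03, and Rbm5, a splicing regulator, at -0.42 and -0.41. Relative to the median of all genes, Rbm4 lay at 0.93 and 0.91, Rbm6 at 0.79 and 0.74, Rbm17 at 0.70 and 0.69, Rbm39 at 0.54 and 0.47 and Rbm5 at 0.019 and 0.027. Of the 10 splicing genes V5 IP thus had 2 that rose and 1 that fell, and GFP IP 2 and 2. Higher calls made up 14.6% of the whole tested set for anti-V5, against 16.3% for anti-GFP. Lower calls made up 21.4% and 26.5% of that set.

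The 5 genes of RNA decay, surveillance, methylation and export have unlike tasks and were put together with earlier results known, so their count is a description. All 5 lay above mock IP, and 3 of 5, Rbm27, Rbm7 and Rbm26, rose in each IP, where 14.6% and 16.3% of all genes rose, with a group median of 1.28 in V5 IP and 1.33 in GFP IP where all genes had -0.44. Rbm27 and Rbm26 encode related zinc finger proteins linked to the decay of polyadenylated nuclear RNA. Rbm27 gave 1.37 and 1.40 in input, 0.46 and 0.77 in mock IP, 3.11 and 3.19 on the V5 arrays and 3.13 and 3.43 on the GFP arrays. The V5 and GFP arrays stood far above the rest, by 2.65 and 2.42 over mock IP on slides 1 and 2 in V5 IP and by 2.68 and 2.65 in GFP IP. Rbm27 rose 5.79-fold over mock IP in V5 IP (log2 2.53 ± 0.24, adjusted p = 0.00208) and 6.34-fold with anti-GFP (2.66 ± 0.24, adjusted p = 0.00179).

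Rbm7 encodes the RNA-binding subunit of the nuclear exosome targeting complex, which hands short-lived nuclear RNA to the exosome. Rbm7 read 2.50 and 2.46 in input, 1.30 and 1.96 in mock IP, 4.03 and 3.47 on the V5 arrays and 3.89 and 3.61 on the GFP arrays. Again no V5 or GFP array overlapped a mock or input array, and mock 1 was the lowest array: the difference from mock IP was 2.73 on slide 1 and 1.51 on slide 2 for V5 IP, against 2.59 and 1.65 for GFP IP. Rbm7 rose 4.34-fold with anti-V5 (log2 2.12 ± 0.31, adjusted p = 0.00506) and 4.35-fold with anti-GFP (2.12 ± 0.31, adjusted p = 0.00438). Without mock 1 the differences were smaller but passed (adjusted p = 0.0378 and 0.0320).

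Rbm26 was at 2.34 and 2.54 in input, 1.77 and 2.01 in mock IP, 3.02 and 3.20 on the V5 arrays and 2.74 and 3.21 on the GFP arrays, above mock IP and input on all 4 IP arrays. It rose 2.33-fold with anti-V5 (log2 1.22 ± 0.26, adjusted p = 0.0178) and 2.11-fold with anti-GFP (1.08 ± 0.26, adjusted p = 0.0169). The calls rest on 1 of its 5 probes: the other 4 stood between -0.32 and 0.61 in V5 IP and between -0.54 and 0.09 in GFP IP, and with the mean of all 5 the calls ended (adjusted p = 0.563 and 0.880). They also ended without mock 1 (0.0758 and 0.0700), V5 1 or V5 2 in V5 IP, and GFP 1 or GFP 2 in GFP IP.

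Rbm8a, which encodes Y14 of the exon junction complex, showed a large spread between slides. It gave 5.10 and 4.83 in input, 4.50 and 4.01 in mock IP, 6.13 and 4.94 on the V5 arrays and 6.18 and 5.0 on the GFP arrays. Its IP arrays lay above the mock arrays, while slide 2 of each IP lay within the input range. The difference from mock IP was 1.28 ± 0.50 in V5 IP (adjusted p = 0.0776) and 1.33 ± 0.50 in GFP IP (adjusted p = 0.0640), and with slide as a block it passed (0.00880 and 0.00569). Its other probe stood at 2.60 and 2.62. Rbm15b, an adapter of the m6A RNA methyltransferase, stood 0.23 and 0.29 above mock IP and did not pass.

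**Figure D2:**
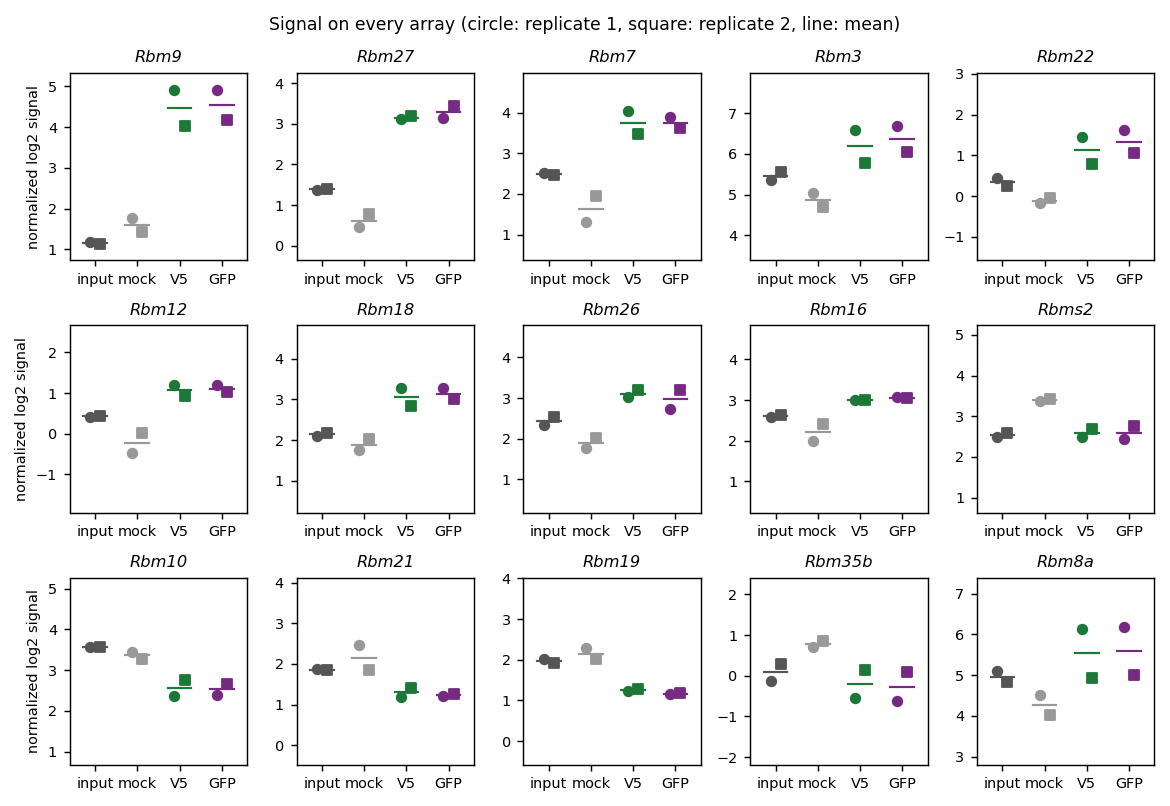
Normalized log2 signal (0 is the 75th percentile of the array) on each of the 8 arrays for 15 Rbm and Rbms genes, with circles for replicate 1, squares for replicate 2 and a line at the mean of each group; every panel spans the same range. V5 and GFP arrays stand above mock and input arrays for Rbm9, Rbm27 and Rbm7, from 3.11 to 4.91, and below them for Rbm10, Rbm21 and Rbm19.

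Of the 4 nucleolar genes 1, Rbm19, fell in each IP, where 21.4% and 26.5% of all genes fell, and the other 3 did not pass in either, also with slide as a block. V5 IP had a group median of -0.084, GFP IP one of -0.044, and 3 of 4 lay above the median of all genes in each. Rbm19, which is needed for processing of pre-ribosomal RNA, read 2.01 and 1.91 in input, 2.29 and 2.01 in mock IP, 1.23 and 1.27 on the V5 arrays and 1.15 and 1.18 on the GFP arrays. Both IP groups lay tightly together below every mock and input array. Rbm19 fell 1.87-fold with anti-V5 (log2 -0.90 ± 0.22, adjusted p = 0.0244) and 1.98-fold with anti-GFP (-0.99 ± 0.22, adjusted p = 0.0144), and lay at -0.46 and -0.55 relative to the median of all genes. The V5 call ended with median centring (adjusted p = 0.0508) and without V5 1 (0.112), V5 2, mock 1, input 1 or input 2. In GFP IP the call held with median centring but ended without GFP 1 (0.0870) or GFP 2 (0.0555). Rbm13, now Mak16, a factor of the large ribosomal subunit, stood at 0.11 and 0.21, Rbm34 at 0.42 and 0.22, and Rbm28, a nucleolar protein of ribosome assembly, at -0.28 and -0.30, and none of them passed.

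Genes of mRNA stability and translation were divided. Rbm3 encodes a cold-inducible protein that binds mRNA and ribosomes. Rbm3 was at 5.36 and 5.55 in input, 5.03 and 4.69 in mock IP, 6.60 and 5.78 on the V5 arrays and 6.68 and 6.05 on the GFP arrays. All IP arrays lay above all mock and input arrays, those of slide 1 furthest. The rise over mock IP was 2.51-fold with anti-V5 (log2 1.33 ± 0.35, adjusted p = 0.0282) and 2.83-fold with anti-GFP (1.5 ± 0.35, adjusted p = 0.0159). Its second probe, well above background on 3 of 8 arrays, stood at -0.52 and -0.57, and with the mean of both the calls ended (0.157 and 0.106). They ended too without mock 1 (0.0904 and 0.0581) or mock 2, and without V5 1, input 1 or input 2 in V5 IP and without GFP 1 in GFP IP.

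Rbms1, Rbms2 and Rbms3 encode related proteins that bind single-stranded nucleic acid. Rbms2 lay at 2.48 and 2.59 in input, 3.37 and 3.43 in mock IP, 2.48 and 2.70 on the V5 arrays and 2.44 and 2.76 on the GFP arrays. The mock arrays were the high ones, and the IP arrays overlapped input. Rbms2 was 1.76-fold lower than in mock IP with anti-V5 (log2 -0.81 ± 0.23, adjusted p = 0.0342) and 1.75-fold lower with anti-GFP (-0.80 ± 0.23, adjusted p = 0.0292). Its V5 call ended whichever of the 8 arrays was left out (0.0521 to 0.160), its GFP call for 6 of them (up to 0.186 without GFP 1), and both with median centring (0.0682 and 0.0668).

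Rbms1 stood 0.66 ± 0.51 and 0.67 ± 0.51 above mock IP and did not pass (adjusted p = 0.320 and 0.311). Its 2 mock arrays differed by more than that, at 3.36 and 4.70. Rbms3 stood 0.08 ± 0.64 and 0.78 ± 0.64 above mock IP, where it was well above background on 1 of 2 arrays, and did not pass either. Rbm38, which stabilizes the mRNA of a cell cycle inhibitor, stood at 0.27 and 0.47 with overlapping arrays and did not pass.

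Of the 6 tested genes outside these groups 3 rose and 1 fell in each IP. Across the 19021 genes the V5 antibody gave 14.6% higher and 21.4% lower, the GFP antibody 16.3% and 26.5%. Rbm12 gave 0.42 and 0.43 in input, -0.48 and 0.02 in mock IP, 1.21 and 0.93 on the V5 arrays and 1.19 and 1.03 on the GFP arrays, with no overlap between IP arrays and the others. Rbm12 rose 2.46-fold with anti-V5 (log2 1.30 ± 0.26, adjusted p = 0.0150) and 2.53-fold with anti-GFP (1.34 ± 0.26, adjusted p = 0.0102). The V5 call ended without mock 1 (0.0606) or V5 1 (0.0927) and the GFP call without GFP 1 (0.0690).

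Rbm18 read 2.11 and 2.18 in input, 1.75 and 2.04 in mock IP, 3.29 and 2.84 on the V5 arrays and 3.28 and 3.01 on the GFP arrays, again with the IP arrays on top. It rose 2.26-fold with anti-V5 (log2 1.18 ± 0.26, adjusted p = 0.0198) and 2.38-fold with anti-GFP (1.25 ± 0.26, adjusted p = 0.0122). One of its other 2 probes stood at 0.80 and 0.72 and the other at -1.01 and -0.92, and with the mean of all 3 neither call held (0.304 and 0.258). Both calls ended without mock 1 (0.0806 and 0.0541) and without the first array of the IP itself.

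Rbm16, now Scaf8, encodes a protein that binds RNA polymerase II and acts in transcription termination. Its signal was 2.58 and 2.63 in input, 2.0 and 2.41 in mock IP, 3.0 and 2.99 on the V5 arrays and 3.07 and 3.05 on the GFP arrays. Replicates in the IPs differed by little, and mock 1 was the lowest array. Rbm16 rose 1.73-fold with anti-V5 (log2 0.79 ± 0.23, adjusted p = 0.0370) and 1.80-fold with anti-GFP (0.85 ± 0.23, adjusted p = 0.0249). Leaving out any 1 of 7 arrays ended the V5 call (up to 0.138 without V5 1) and any 1 of 5 the GFP call (up to 0.119 without GFP 1).

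Rbm21, now Tut1, encodes an enzyme that adds uridines to U6 RNA. Rbm21 lay at 1.88 and 1.85 in input, 2.45 and 1.85 in mock IP, 1.19 and 1.41 on the V5 arrays and 1.22 and 1.26 on the GFP arrays. The IP arrays were the lowest, although mock 2 was no higher than input. The fall was 1.81-fold with anti-V5 (log2 -0.85 ± 0.27, adjusted p = 0.0424) and 1.88-fold with anti-GFP (-0.91 ± 0.27, adjusted p = 0.0294), and neither call held with median centring (0.0901 and 0.0693), without mock 1 (0.133 and 0.0937) or without the first array of the IP (0.175 and 0.126). Leaving out any 1 of 7 arrays ended the V5 call of Rbm21, and any 1 of 5 the GFP call. Both also ended with the authors' table (0.0955 and 0.0691). Rbm12b stood at 0.65 and 0.62 (adjusted p = 0.0607 and 0.0631; 0.0313 and 0.0345 with slide as a block) and Rbm14, a nuclear coactivator of paraspeckles, at -0.32 and -0.17. Rbm12b passed under 5 of 16 alternatives in each IP, the slide block among them. Rbm12b has a close copy beside it in RefSeq (GRCm38.p6), Rbm12b2, so which of the pair its probes read is uncertain. Rbm4 has its relative Rbm4b among its nearest genes, and the same uncertainty holds for the Rbm4 probes.

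Probes of 1 gene did not always move together. Of 19 genes with several kept probes, 6 had probes on both sides of 0 when V5 IP was set against mock IP, and 6 for GFP IP: Rbm3, Rbm6, Rbm14, Rbm18, Rbm26 and Rbm39. Probes of Rbm9, Rbm7, Rbm27 and Rbm22 lay on 1 side in both. The second Rbm27 probe stood 1.89 and 1.99 above mock IP but -0.51 and -0.41 from input, while the first stood 1.76 and 1.90 above input. Rbm8a showed the reverse pattern in size, with 0.57 and 0.62 above input at the probe that stands for the gene and 2.59 and 2.61 at the other. Which part of a transcript each probe reads was not analysed here. Overlapping neighbours add to that limit: in RefSeq Rbm10, Rbm12, Rbm18, Rbm13 (Mak16), Rbm15b and Rbm35b (Esrp2) overlap another protein-coding gene, and Rbm4 and Rbm14 overlap the same one, Gm21992.

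**Figure D3:**
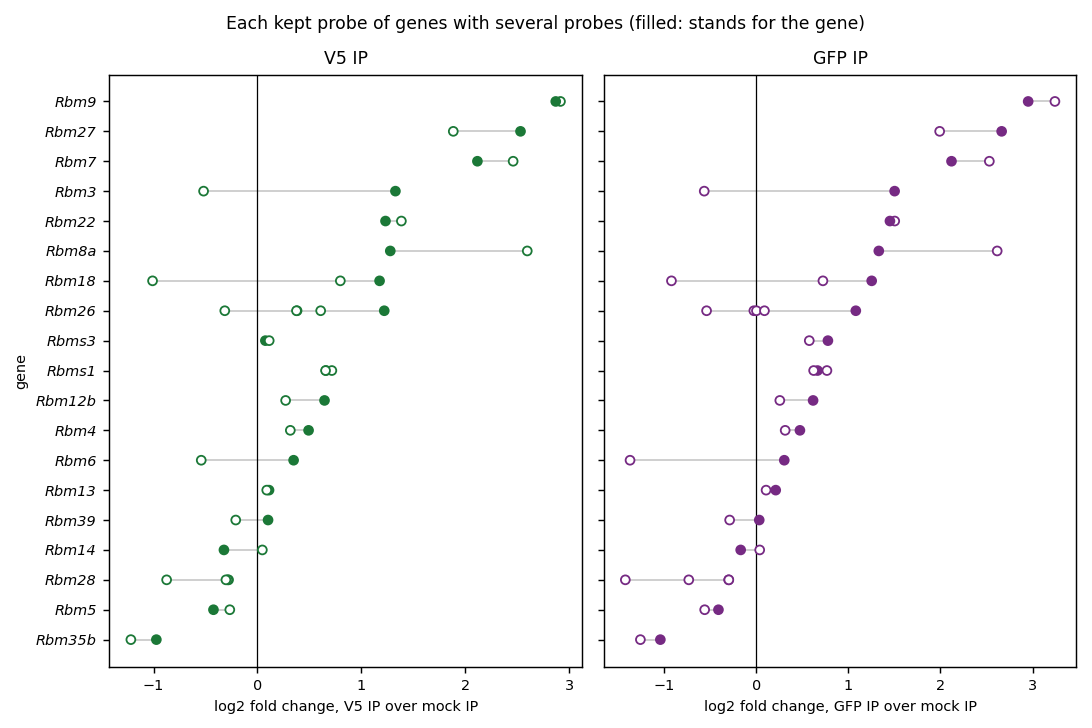
Log2 fold change over mock IP of each kept probe for the 19 genes with several kept probes, in V5 IP (left) and GFP IP (right); the filled point is the probe that stands for the gene. The 2 probes of Rbm9 lie at 2.87 and 2.92 in V5 IP, whereas the 3 of Rbm18 run from 1.18 down to -1.01.

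Comparing the IPs with input asks which mRNAs were over-represented against the RNA the cells hold. In V5 IP Rbm9, Rbm27, Rbm15b, Rbm7 and Rbm18 were higher than in input, 5 of 30 (16.7%) where 14.2% of all genes were. In GFP IP Rbm9, Rbm27, Rbm15b, Rbm7, Rbm18 and Rbm22 were higher, 6 of 30 where 16.0% were. Rbm34, Rbm28, Rbm10 and Rbm19 were lower in V5 IP, and in GFP IP Rbm34, Rbm28, Rbm10 and Rbm19 too: 4 of 30 each (13.3%), where 13.7% of all genes were lower in V5 IP and 16.9% in GFP IP. These shares are near those of all genes. Medians over the 30 genes were 0.10 and 0.12, where all genes had -0.11 in both. Fitted with slide as a block, V5 IP had 8 members higher and 8 lower (20.4% and 24.3% of all genes), and GFP IP 9 and 7 (22.0% and 26.9%). Both IPs are set against the same input arrays.

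**Figure D4:**
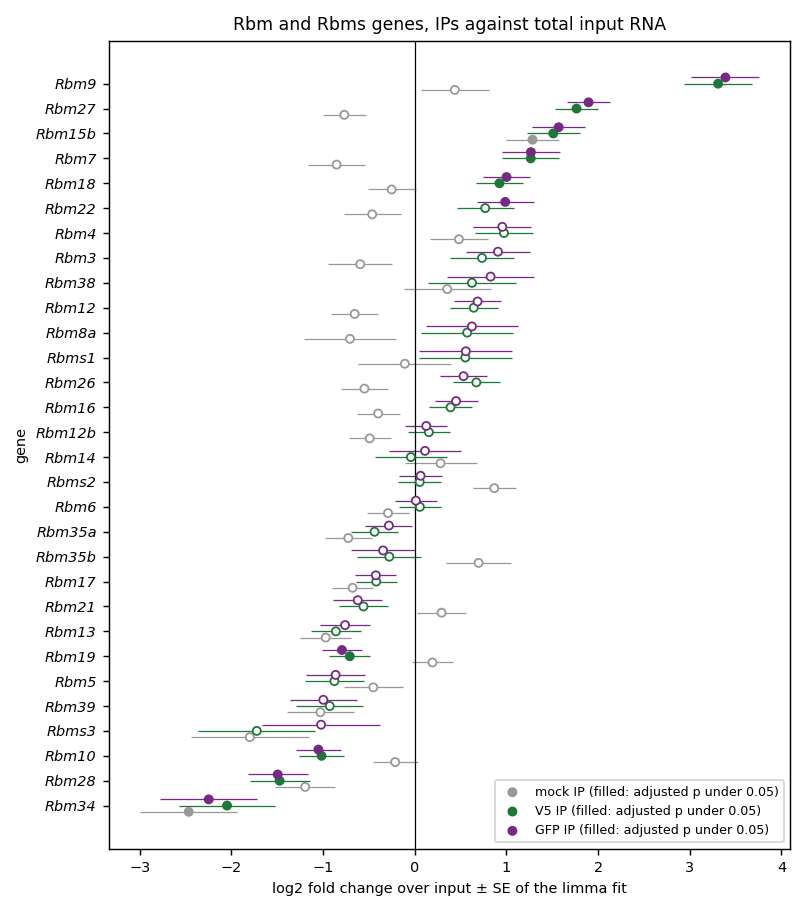
Log2 fold change over total input, with the standard error of the limma fit, for the 30 tested genes in mock IP, V5 IP and GFP IP (2 arrays a group; filled points passed the test). Rbm9 stands apart at 3.31 and 3.39 in the DAZL IPs, and Rbm34 at the bottom is low in all 3 IPs, from -2.05 to -2.47.

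Rbm9 rose 9.91-fold over input in V5 IP (log2 3.31 ± 0.37, adjusted p = 0.00224) and 10.5-fold with anti-GFP (3.39 ± 0.37, adjusted p = 0.00178), and it was the member that kept its call over input under all 16 alternatives in both. Rbm27 rose 3.40-fold (1.76 ± 0.24, adjusted p = 0.00306) and 3.72-fold (1.90 ± 0.24, adjusted p = 0.00229), a call that ended with the mean of its probes (0.228 and 0.148). Rbm7 rose 2.40-fold and 2.41-fold (adjusted p = 0.0231 and 0.0196), which ended without input 1 (0.120 and 0.102), without input 2 or without the first array of the IP. Rbm18 lay 0.92 and 1.0 above input (adjusted p = 0.0355 and 0.0235) but below it with the mean of its 3 probes, at -0.58 and -0.54. Leaving out any 1 of 5 arrays ended its V5 call, and any 1 of 4 its GFP call. Rbm22 lay 0.99 above input in GFP IP (adjusted p = 0.0446). That call ended with no filter on dim probes (0.0835), with normexp (0.144) and when any 1 of 5 arrays was left out.

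Rbm15b rose over input in all 3 IPs. It was at -2.31 and -2.43 in input, -1.12 and -1.06 in mock IP, -0.61 and -1.11 on the V5 arrays and -0.51 and -1.09 on the GFP arrays. All 6 IP arrays, mock included, lay above input, and the DAZL IPs overlapped mock IP. Rbm15b rose 2.85-fold over input in V5 IP (adjusted p = 0.00937), 2.97-fold with anti-GFP (adjusted p = 0.00693) and 2.44-fold in mock IP (log2 1.28 ± 0.29, adjusted p = 0.0376). Without input 1, input 2 or the first array of the IP none of these calls held.

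Lower than input, all 4 nucleolar genes lay below 0 in each DAZL IP, and 3 of 4 were called in each, where 13.7% and 16.9% of all genes were, with a group median of -1.17 in V5 IP and -1.14 in GFP IP. In mock IP against input the same group had a median of -1.08, with 1 of 4 called lower and 3 of 4 with slide as a block, when both DAZL IPs had 4 of 4. Of all genes 4.08% were lower in mock IP. With the block the shares lower were 13.4% in mock IP, 24.3% in V5 IP and 26.9% in GFP IP. Rbm34 stood at 2.27 and 2.33 in input, -0.84 and 0.51 in mock IP, -0.19 and 0.69 on the V5 arrays and -0.44 and 0.54 on the GFP arrays. Input alone was high, and the 3 IP groups overlapped each other. Rbm34 was 4.13-fold lower than input in V5 IP (adjusted p = 0.0264), 4.75-fold lower in GFP IP (adjusted p = 0.0162) and 5.52-fold lower in mock IP (log2 -2.47 ± 0.53, adjusted p = 0.0336). Rbm28 gave 3.59 and 3.17 in input, 1.97 and 2.40 in mock IP, 1.56 and 2.25 on the V5 arrays and 1.69 and 2.08 on the GFP arrays, and was 2.78-fold and 2.82-fold lower in the DAZL IPs (adjusted p = 0.0159 and 0.0128). In mock IP Rbm28 was 2.29-fold lower than input, which did not pass (adjusted p = 0.0563; 0.0161 with slide as a block). The calls of Rbm34 and Rbm28 ended without input 1 (up to 0.204 and 0.122), without input 2 or without the first array of the IP.

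Rbm10 was 2.02-fold lower than input in V5 IP (adjusted p = 0.0209) and 2.07-fold lower in GFP IP (adjusted p = 0.0156), while in mock IP it stood at -0.21 ± 0.24 and did not pass. Rbm19 was 1.63-fold lower in V5 IP (adjusted p = 0.0498) and 1.73-fold lower in GFP IP (adjusted p = 0.0302), with 0.19 ± 0.22 in mock IP. Their calls against input ended without input 1 or input 2 (up to 0.129 for Rbm10 and 0.251 for Rbm19 in V5 IP) and without the first array of the IP. The Rbm19 call also ended with median centring (0.0780 and 0.0530) and with the authors' table (0.103 and 0.0615), without the second array of the IP, and for V5 IP without GFP 1 or GFP 2. It held under 4 of 16 alternatives for V5 IP and 8 of 16 for GFP IP.

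Mock IP against input shows what normal IgG and the beads recover. Rbm15b was higher and Rbm34 lower, 1 of 30 each way (3.33%), where 6.64% of all genes were higher and 4.08% lower. Fitted with slide as a block, 3 members were higher and 8 lower, where 21.4% and 13.4% of all genes were. The median of the 30 genes was -0.46, against 0.20 for all genes, and 21 of 30 lay below 0. With the block, Rbms2 and Rbm35b were among the higher and Rbm27 among the lower. Rbms2 stood 0.87 ± 0.23 above input in mock IP (adjusted p = 0.0542; 0.0145 with the block) but 0.05 and 0.06 above it in V5 IP and GFP IP. Rbm27 stood at -0.77 ± 0.24 in mock IP (adjusted p = 0.0729; 0.0223 with the block).

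V5 IP and GFP IP recover the same fusion protein through different tags. By limma 0 of 30 genes differed between them at an adjusted p under 0.05, 0 had an unadjusted p under 0.05, and 0 of all 19021 genes (0%) passed. With slide as a block no member passed either, and 0.00526% of all genes were higher in V5 IP. Of the 30 differences 29 lay within 0.25 of 0, and the median absolute difference was 0.065. Rbm9 differed by -0.08 ± 0.37, Rbm27 by -0.13 ± 0.24 and Rbm7 by -0.0019 ± 0.31, V5 minus GFP. Rbms3 had the widest difference, -0.70 ± 0.64. With standard errors of this size, small differences between the antibodies were not detectable.

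Fold changes of close relatives within the family are given side by side, and those of Rbm5, Rbm6, Rbm12b, Rbm35a and Rbms1 passed in neither IP. Rbm26 lay at 1.22 and 1.08 over mock IP and its relative Rbm27 at 2.53 and 2.66. Rbm5, Rbm6 and Rbm10 encode related splicing regulators: they stood at -0.42, 0.35 and -0.80 in V5 IP and at -0.41, 0.30 and -0.84 in GFP IP. Rbm35a lay above and Rbm35b below mock IP, and so did Rbms1 and Rbms2. Rbm12 and Rbm12b both lay above, at 1.30 and 0.65 in V5 IP. No test between genes was made, and levels of their probes are not comparable.

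Genes that now carry an Rbm name but had an older name in the array files were measured as well. Of 9 such genes 8 were tested, and 3 rose with anti-V5, while with anti-GFP 3 rose and 1 fell. Over all genes 14.6% rose with anti-V5, and 16.3% rose and 26.5% fell with anti-GFP. The ninth, Rbm20, had no kept probe. Rbm47, which binds mRNA and takes part in cytidine deamination of mRNA, rose 3.71-fold over mock IP in V5 IP (log2 1.89 ± 0.23, adjusted p = 0.00273) and 4.14-fold with anti-GFP (2.05 ± 0.23, adjusted p = 0.00194), and passed under all 16 alternatives in both. Rbm33 rose 3.37-fold and 4.07-fold and Rbm48 2.25-fold and 2.31-fold. Rbm42 fell by 0.99 ± 0.29 in GFP IP (adjusted p = 0.0288), a call that ended with median centring (0.0720), with the authors' table (0.0645) and without GFP 1 or GFP 2 (up to 0.126), mock 1, input 1 or input 2.

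Rbm44, a germ cell protein of the bridges between dividing germ cells, gave -2.17 and -2.69 in input, -6.59 and -4.67 in mock IP, -5.09 and -4.21 on the V5 arrays and -4.76 and -4.53 on the GFP arrays. Input was far above all IP arrays, and in mock IP it was well above background on 1 of 2 arrays. Rbm44 stood 0.98 ± 0.60 above mock IP in both IPs (adjusted p = 0.221 and 0.213) and at -2.22 ± 0.60 against input in both (adjusted p = 0.0307 and 0.0269). Its calls against input ended without input 1 (0.158 and 0.140), input 2 or the first array of the IP. No probe was matched to Rbm46, another germ cell member of the family.

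The unnumbered genes Rbmx2, Rbmxl1 and Rbmxl2, whose names are built on that of the hnRNP gene Rbmx, rose in both IPs. Rbmx2 rose 6.51-fold and 7.20-fold (adjusted p = 0.00245 and 0.00194) and kept its call under all 16 alternatives. Rbmx itself stood at -0.77 ± 0.69 and -0.79 ± 0.69 and did not pass, nor did Rbmy. Transcripts of close copies can bind the same probe, so the values of genes that have such copies are uncertain.

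Partners of the family's proteins were taken as lists. The lists were chosen with earlier results of these data known, so their counts are descriptions. Over all genes V5 IP had 14.6% higher and 21.4% lower, GFP IP 16.3% and 26.5%. Of 10 exon junction complex genes 3 rose with anti-V5, and with anti-GFP 3 rose and 2 fell, with medians of -0.07 and -0.18 where all genes had -0.44. Upf3b, which links the complex to nonsense-mediated decay, rose 8.0-fold and 8.41-fold (adjusted p = 0.00463 and 0.00381), though not with the mean of its probes (0.105 and 0.241). Its paralogue Upf3a stood at -0.78 and -0.85, which passed in GFP IP alone (adjusted p = 0.0342), ended with median centring (0.0719), with the authors' table (0.0797) and when any 1 of 6 arrays was left out (up to 0.189 without GFP 1), and turned positive with the mean of its probes (0.12 and 0.11). Of 7 genes of the m6A writer complex 2 rose with anti-V5 and 1 with anti-GFP. Wtap, a core subunit of that complex, rose 6.21-fold and 7.31-fold (adjusted p = 0.00208 and 0.00179) and kept its call under all 16 alternatives.

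Of 15 genes of the U2 particle and 3′ splice site recognition 6 rose and 1 fell in each IP, with medians of 0.60 and 0.63. Of all genes V5 IP had 14.6% higher and 21.4% lower, GFP IP 16.3% and 26.5%, each around a median of -0.44. Smndc1, a splicing factor of the survival motor neuron family, rose 8.88-fold and 8.66-fold (adjusted p = 0.00222 and 0.00194) under all 16 alternatives, and Puf60 fell by 0.90 and 1.07 (adjusted p = 0.0383 and 0.0199). Both Puf60 calls ended without mock 1 (0.117 and 0.0721) or the first array of the IP, and the V5 call also with median centring (0.0707), with the authors' table (0.0792) and without mock 2, input 1, input 2, GFP 1 or GFP 2. Rbm7 feeds RNA to the exosome. Of 12 genes of the exosome and its targeting factors 4 fell and the other 8 did not pass in each IP, and the medians were -0.69 and -0.78. Exosc5, an exosome core subunit, fell by 1.18 and 1.32 (adjusted p = 0.0373 and 0.0229). Both Exosc5 calls ended without mock 1 (0.116 and 0.0693) or either array of the IP, and the V5 call also with median centring (0.0731), with the authors' table (0.0691) and without input 1 or input 2. Zcchc8, the partner of Rbm7 in the targeting complex, stood at 0.49 and 0.55 and did not pass.

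**Figure D5:**
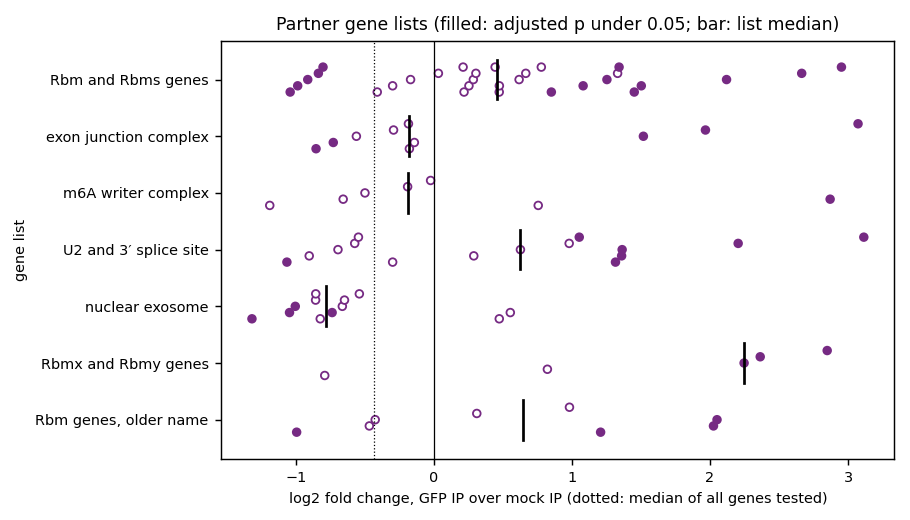
Log2 fold change in GFP IP over mock IP for the 30 Rbm and Rbms genes and for the genes of 6 other lists, with filled points for genes that passed the test, a bar at each list's median and a dotted line at the median of all genes, -0.44. The exosome list has its median at -0.78 and the Rbm and Rbms genes theirs at 0.46.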

How the data were processed

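RNA from 8 samples was hybridised to one-colour (Cy3) Agilent arrays. The deposited spot intensities are processed signals of Feature Extraction 9.1.3.1, background-subtracted and detrended within each array per the file headers, rounded to 3 significant digits. A second deposited table holds background-subtracted signals that the authors divided by the array median, with a quality score per spot, per the file headers. That score served only to match 44985 of its 45018 rows to spots.

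Here log2 of the processed intensity minus the 75th percentile of each array was fitted by lmFit and eBayes of limma 3.58.1 (R 4.3.3) to all 8 arrays together, with 4 residual degrees of freedom. A gene was read from 1 probe, its brightest kept one by mean. P-values were two-sided and adjusted by Benjamini-Hochberg over 19021 genes, with calls at an adjusted p under 0.05. Probes were named by accession (22951 probes), current symbol (6659) or synonym (3096) through RefSeq, and otherwise kept the name in the file (8468). The number of arrays limits the precision. The script was tested on simulated data.

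All Rbm and Rbms genes were accounted for, with values on every array, by rule, for up to 8 called genes at each end of each comparison with mock IP and for Rbm44; the rule also named Rbm46, which no probe matched. Rbm16, Rbm8a, Rbm15b, Rbm28 and Rbm34 were added after their values were seen. Members, role groups and partner lists were chosen with earlier results of these data known. Replicate numbers coincide with the slides: the differences between replicates 1 and 2 correlated across genes at 0.313 (input and V5 IP) to 0.782 (V5 IP and GFP IP), so the slide was also fitted as a block. Other alternatives were normexp background correction (offset 50), quantile normalization, median centring, no filter on dim probes, the mean of all kept probes, the authors' table (log2 of signal plus 0.1), the compared groups alone, and each array left out in turn. Probe sequences were not used here.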

Additional observations from a re-analysis of the deposited data

How the results depend on the processing

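Counts of Rbm and Rbms genes called are given as higher and lower, here without the shares of all genes. These counts describe how stable the calls were. With normexp they were 3 and 0 over mock IP in either DAZL IP, 2 and 0 in each over input, and 0 and 0 in mock IP over input. With only the compared groups fitted, V5 IP over mock IP had 4 and 0, GFP IP over mock IP 0 lower, GFP IP over input 7 lower and mock IP over input 0 and 0. Lower calls against mock IP numbered 0 in V5 IP and 1 in GFP IP with median centring, with no filter and with the authors' table. The replicate block (slide) gave 8 and 8 in V5 IP and 7 lower in GFP IP over input, and 3 and 8 in mock IP over input. V5 IP over input had 3 higher with the mean of probes and 8 with the authors' table, and GFP IP over input had 7 lower with quantile normalization and 8 with the mean of probes. Mock IP over input had 0 higher and 2 lower with median centring, 0 and 0 with no filter, and 3, 6 and 3 lower with quantile normalization, the mean of probes and the authors' table. With 1 array left out, the ranges over mock IP were 3 to 9 and 0 to 3 (V5 IP), then 3 to 10 and 0 to 5 (GFP IP), those over input 2 to 6 and 0 to 6 (V5 IP), then 2 to 7 and 0 to 7 (GFP IP), and 0 to 1 and 0 to 6 in mock IP over input. V5 IP against GFP IP had 0 and 0 calls in all of these. Among values of single genes, 1318 kept their direction and side of the threshold, 339 lost a call, 32 gained one and 39 turned sign. Signs turned against mock IP with the mean of probes for Rbm6 (-0.10 in V5 IP, -0.53 in GFP IP), Rbm39 (-0.054 and -0.13) and Upf3a (0.12 and 0.11), and against input for Rbm18 (-0.58 and -0.54). They turned with normexp for Rbm35a (-0.16), Rbms3 (-0.38) and Rbm44 (-0.26) in V5 IP and Rbm39 (-0.070) in GFP IP, with quantile normalization for Rbm39 (-0.051) in GFP IP, and for Rbm14 in GFP IP with median centring (0.0085) and the authors' table (0.027). Leaving out 1 array turned the sign of some differences from mock IP, which then ranged in V5 IP from -0.20 to 0.42 for Rbm13, -0.78 to 0.13 for Rbm14, -0.024 to 0.48 for Rbm15b, -0.62 to 0.062 for Rbm28, -0.26 to 1.09 for Rbm34, -0.32 to 0.86 for Rbm38, -0.38 to 0.58 for Rbm39, -0.0093 to 1.33 for Rbms1 and -0.67 to 0.82 for Rbms3. In GFP IP they ranged from -0.098 to 0.52 for Rbm13, -0.63 to 0.29 for Rbm14, -0.0034 to 0.57 for Rbm15b, -0.46 to 0.89 for Rbm34, -0.020 to 0.97 for Rbm38, -0.45 to 0.51 for Rbm39 and -0.0044 to 1.33 for Rbms1. None of the members among these turns, Rbm18 against input aside, was called in that comparison. The cause was not tested. With 2 arrays a group and spots near background, small differences were not detectable.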
